A study of Homo sapiens with 15 samples.

Results

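The peroxiredoxins and thioredoxins were examined in PE/CA-PJ41 cells, an immortalised human oral squamous carcinoma line, with and without a cytoglobin transgene. The set comprised 10 genes: the peroxidases PRDX1 to PRDX6, the thioredoxins TXN and TXN2, the reductase TXNRD2 and the thioredoxin-binding protein TXNIP. Probes were taken where the array's own annotation gave a RefSeq transcript of one of these genes, which held for 9 of the 10 genes, of 19483 genes named in this way on the array. PRDX2 matched no probe and was not analysed here. Samples labelled CYGB+ came from cells stably transfected with a pCMV6-Neo plasmid carrying human cytoglobin cDNA, and samples labelled NCE (non-cytoglobin expressing) are given in the labels as carrying the empty vector, whereas the study's text also calls its NCE control un-transfected. Stable clones were selected in G418, and RNA was extracted on 3 occasions. Each group had 3 biological replicates, hybridised to 3 arrays each for NCE and to 2 each for CYGB+, which gave 15 arrays. CYGB+ cells were a stable clone picked with a cloning ring, so that an effect of cytoglobin and a property of the clone cannot be told apart.

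Peroxiredoxins are thiol peroxidases that remove hydrogen peroxide, organic peroxides and peroxynitrite by oxidising a reactive cysteine. Most of them are returned to the reduced state by thioredoxin, which thioredoxin reductase recharges with electrons from NADPH. The cytosol and nucleus use TXN with the reductase TXNRD1, whereas mitochondria use TXN2 with TXNRD2. TXNIP, an alpha-arrestin, binds reduced thioredoxin and also restrains glucose uptake. In squamous carcinoma cells these enzymes belong to the antioxidant machinery that operates beside glutathione.

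The arrays differed in ways that bear on every value below. The labels give Cy3, read in green, for every sample, but the study's methods place control RNA in Cy5, read in red, and cytoglobin RNA in Cy3. All values below are from green, which for NCE arrays is the control RNA per the labels and not per the methods. Between 49.0% and 57.3% of probes were well above background per array in the green channel. Slide 1 held 8 NCE arrays, whereas slide 2 held the remaining NCE array (replicate 1, repeat 3) and all 6 CYGB+ arrays, so that slide and group were nearly inseparable. Correlation of each array's deviations with the other arrays of its group averaged between 0.13 and 0.39 for 12 arrays. It was between -0.055 and -0.0036 for the other 3, which were NCE replicate 3 repeat 2, NCE replicate 1 repeat 3 and CYGB+ replicate 1 repeat 1. Results are therefore given below with and without these 3 arrays where they matter. The deviations were taken from the mean over all 15 arrays and so contain the group difference. Leaving out arrays by this rule therefore favours separation of the groups. It also leaves NCE arrays on slide 1 only and CYGB+ arrays on slide 2 only. All 7 squamous keratinocyte markers tested (KRT5, KRT14, KRT17, KRT6A, TP63, SFN and DSG3) were well above background on all 15 arrays. Of the 4 fibroblast markers, COL3A1 and PDGFRB were above background on no array. COL1A1 was above it on 13 and was slightly higher in CYGB+, by 0.10 on the log2 scale (limma adjusted p = 0.64). COL1A2 fell by 1.32 in CYGB+ (limma adjusted p = 0.0011). None of the 6 leukocyte and 4 endothelial probes was above background on all 15 arrays, although CDH5 was on 14. The summed normalised intensity of the 4 fibroblast markers was 413 to 513 on NCE arrays and 282 to 337 on CYGB+ arrays. COL1A2 alone among them was called, with PDGFRB at -0.06 and COL3A1 at -0.03 untested, so the sum does not describe fibroblast markers as a group. Its part in the results was not tested.

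Cytoglobin itself did not separate the groups. Its only probe was well above background on all 15 arrays, including the NCE arrays, whose name stands for non-cytoglobin expressing. The study assessed cytoglobin in its cell lines by PCR of the transgene, qPCR and in-cell ELISA. Signal on this 1 probe does not show by itself that NCE cells express cytoglobin. It gave log2 intensities of 11.85, 12.15 and 11.96 in the NCE replicates and 11.38, 12.44 and 11.97 in the CYGB+ replicates. The groups overlapped, and the difference of -0.05 (95% interval -0.60 to 0.49) had an adjusted p of 0.91. The sources used here do not say whether this probe lies within the transfected cDNA, and a probe outside it would not report the transgene. Directions below are between samples as labelled, and this probe does not bear the labels out.

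The sequences upstream of PRDX5 and TXNRD1 are shown first, because these were the peroxiredoxin and the thioredoxin reductase whose transcripts differed between the groups. All are 130 bases read on the plus strand from RefSeq promoter windows on GRCh38.p14, and end at the base before an annotated transcription start. The PRDX5 stretch, chr11:64317991-64318120, spans the whole gap between the starts of PRDX5 and of its divergent neighbour TRMT112. TXNRD1 has 2 annotated starts in these windows, with the stretches chr12:104215649-104215778 and chr12:104286902-104287031. Capitals mark whole matches to the letters TGACNNNGC on either strand, the core of the antioxidant response element through which NRF2 acts.
PRDX5: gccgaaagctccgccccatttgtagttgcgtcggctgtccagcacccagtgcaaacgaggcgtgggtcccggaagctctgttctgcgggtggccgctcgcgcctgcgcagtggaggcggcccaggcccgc
TXNRD1, start 1: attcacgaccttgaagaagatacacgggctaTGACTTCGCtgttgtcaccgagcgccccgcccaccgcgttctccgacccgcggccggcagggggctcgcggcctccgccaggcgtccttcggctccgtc
TXNRD1, start 2: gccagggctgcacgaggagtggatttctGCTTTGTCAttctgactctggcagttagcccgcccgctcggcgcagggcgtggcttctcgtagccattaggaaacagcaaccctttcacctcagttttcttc

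Promoter windows of 250 bases before to 50 bases after a start were found for 7 of the 10 genes, in 11 windows, and none was found for PRDX1, PRDX6 or TXN2. The TGACNNNGC core was in both TXNRD1 windows (at a second place in the first window, across the start itself and so not whole in the stretch shown), in neither PRDX5 window and in no window of the other genes of the set. It occurred in 13.3% of all 35116 promoter windows. The E-box CACGTG, which is the core of sites bound by MondoA and ChREBP, was in the PRDX3 and PRDX4 windows and in neither TXNIP window, against 7.26% of all windows. No window of the set held both motifs, and a match describes only the letters of that window. Only exact matches were searched, so absence of the letters does not show that a window lacks a site for NRF2, MondoA or ChREBP. A match likewise does not show that these factors bind there.

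PRDX5 was the one gene of the set whose transcript rose. It encodes a peroxiredoxin found in mitochondria, peroxisomes and cytosol that reduces alkyl hydroperoxides and peroxynitrite as well as hydrogen peroxide. Its log2 intensity was 11.78, 11.71 and 11.42 in the NCE replicates and 13.21, 13.24 and 12.62 in the CYGB+ replicates. Every CYGB+ replicate lay above every NCE replicate, and the same held for single arrays, at 11.33 to 11.92 for the 9 NCE arrays and 12.56 to 13.34 for the 6 CYGB+ arrays. Group means were 11.64 ± 0.19 and 13.02 ± 0.35 (SD over 3 replicates), a 2.61-fold higher level in CYGB+ (95% interval 1.93 to 3.53, limma adjusted p = 0.0044). Within CYGB+, replicate 3 was the lowest on both of its arrays. PRDX5 ranked 54th from the top among the 22357 probes tested, and 84 probes differed by at least as much in either direction.

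**Figure D1:**
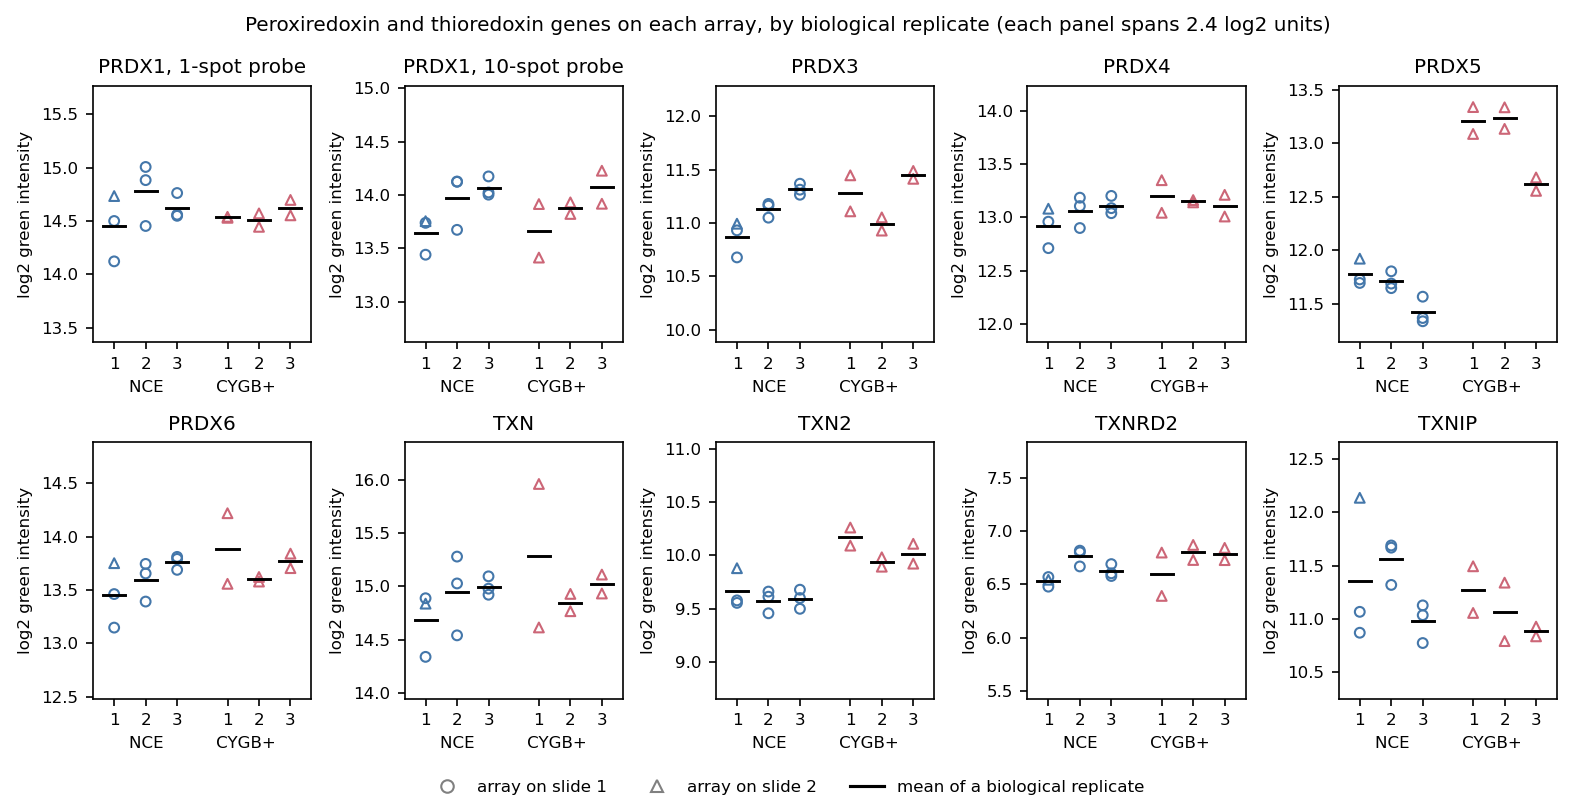
Log2 green intensity of the 10 probes for peroxiredoxin and thioredoxin genes on each array, with arrays placed by biological replicate of NCE (blue) and CYGB+ (red), circles for slide 1, triangles for slide 2 and black bars for the mean of a replicate. All panels span the same number of log2 units; PRDX5 is the panel in which the groups are furthest apart, and the single triangle among the NCE arrays of TXNIP lies at 12.14, above every CYGB+ array.

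Only 1 NCE array shared a slide with CYGB+ arrays, and it is one of the 3 that stood apart. For PRDX5 this array gave 11.92 and the CYGB+ arrays 12.56 to 13.34, a log2 difference of 1.10 that did not pass the threshold (adjusted p = 0.19). With slide as a block across all arrays the difference was 1.13 (limma adjusted p = 0.024), which rests on the same array for its comparison within a slide. The fit with slide as a block took the 15 single arrays, with the biological replicate as a random block. Its p-values are therefore not over means of 3 against 3 replicates. Without the 3 arrays that stood apart the difference was 1.39 (limma adjusted p = 0.0013). That choice of arrays favours separation of the groups and leaves no slide with both. This fit therefore cannot tell group from slide. With all arrays kept and each probe's own spread used alone, without limma's moderation, the adjusted p was 0.069.

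Genes beside PRDX5 on chromosome 11 were read for comparison and were chosen after the PRDX5 result was seen. TRMT112, which shares the upstream stretch shown above and encodes a cofactor of methyltransferases, had mean log2 intensities of 14.05 in NCE and 14.31 in CYGB+, a difference of 0.26 (adjusted p = 0.20). The next gene, ESRRA, a nuclear receptor of mitochondrial genes, had 1 probe that rose by 0.66 (adjusted p = 0.036) and another at 0.25 (adjusted p = 0.51). On the other side, RPS6KA4 was at -0.23 (adjusted p = 0.53), and both CCDC88B probes were at -0.24 and -0.04 (adjusted p = 0.25 and 0.72). Apart from 1 ESRRA probe, no neighbour passed the threshold, and the difference between PRDX5 and its neighbours was not tested.

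The mitochondrial thioredoxin branch comprised TXN2, PRDX3 and TXNRD2. TXN2, the mitochondrial thioredoxin, had log2 intensities of 9.67, 9.58 and 9.59 in NCE and 10.18, 9.94 and 10.02 in CYGB+. The replicates did not overlap, but the difference of 0.43 (95% interval 0.14 to 0.72, 1.35-fold) just missed the threshold (adjusted p = 0.063). Single arrays came close, since the NCE array on slide 2 was at 9.88 and the lowest CYGB+ array at 9.89. Without the 3 arrays that stood apart TXN2 passed (0.45, limma adjusted p = 0.010). That choice of arrays favours separation of the groups and leaves no slide with both. With slide as a block the difference shrank to 0.16 (limma adjusted p = 0.80). PRDX3, the mitochondrial peroxidase that TXN2 recharges, gave 10.87, 11.13 and 11.31 in NCE and 11.28, 10.99 and 11.45 in CYGB+. The groups overlapped, with a difference of 0.14 (95% interval -0.25 to 0.52, adjusted p = 0.64). TXNRD2, the reductase of TXN2, was dim at 6.53, 6.76 and 6.62 in NCE and 6.59, 6.80 and 6.78 in CYGB+. Its values overlapped as well and differed by 0.09 (95% interval -0.13 to 0.30, adjusted p = 0.58), and at this low signal the offset of 50 added in background correction shrinks any fold.

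Peroxiredoxins of the cytosol and endoplasmic reticulum did not pass the test. PRDX1, the main cytosolic peroxidase of the family, was read by 2 probes whose differences were -0.02 (95% interval -0.40 to 0.35, adjusted p = 0.94) and -0.06 (95% interval -0.38 to 0.25, adjusted p = 0.81). The probe printed 10 times gave 13.64, 13.97 and 14.07 in NCE and 13.66, 13.88 and 14.07 in CYGB+. Both probes of PRDX1 thus had overlapping groups, and their sign turned under several of the settings tried. PRDX4, the peroxiredoxin of the secretory pathway, gave 12.92, 13.06 and 13.11 in NCE and 13.20, 13.15 and 13.11 in CYGB+. The lowest CYGB+ replicate equalled the highest NCE replicate to 2 decimals, and the difference was 0.12 (95% interval -0.16 to 0.40, adjusted p = 0.56). PRDX6, the 1-cysteine member that is recharged by glutathione and also has phospholipase activity, gave 13.45, 13.60 and 13.76 in NCE and 13.89, 13.60 and 13.77 in CYGB+. These overlapped, with a difference of 0.15 (95% interval -0.18 to 0.47, adjusted p = 0.53). The intervals of PRDX1, PRDX4 and PRDX6 ended at a log2 difference of 0.47 or less, or 1.39-fold, in this fit. They cover the spread of the replicate means and neither the slide, which was nearly inseparable from group, nor the processing. With slide as a block PRDX4 was at 0.02 and PRDX6 at -0.08. With the processed signal at the 75th percentile they were at 0.29 and 0.30.

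TXN, the cytosolic thioredoxin, gave log2 intensities of 14.69, 14.95 and 14.998 in NCE and 15.29, 14.85 and 15.02 in CYGB+. The groups overlapped, and the difference was 0.17 (95% interval -0.19 to 0.54, adjusted p = 0.52). CYGB+ replicate 1 was high through its repeat 1 at 15.96, beside 14.62 for its other array. Without the 3 arrays that stood apart, of which this is one, the difference was -0.03 (adjusted p = 0.92). Over the 15 arrays the genes whose probes followed TXN most closely were RPL10A, a ribosomal protein (Pearson r = 0.93), EIF3H, a translation initiation factor subunit (r = 0.92), and MTDH (r = 0.92). These are correlations across arrays that include repeats of the same RNA.

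TXNIP gave 11.36, 11.56 and 10.98 in NCE and 11.28, 11.07 and 10.88 in CYGB+. The groups overlapped, and the difference of -0.22 (95% interval -0.63 to 0.18) did not pass the test (adjusted p = 0.45). TXNIP was the gene of the set whose difference moved furthest when slide entered the fit. An effect of the slide and a deviation of its single NCE array cannot be told apart. Its NCE array on slide 2 lay at 12.14, while the CYGB+ arrays of that slide lay between 10.79 and 11.49. The difference was -1.06 within that slide (adjusted p = 0.16) and -1.12 with slide as a block (adjusted p = 0.068), both of which rest on that single NCE array. Without the 3 arrays that stood apart, which include it, the difference was -0.16 (adjusted p = 0.53). RTN4IP1 (r = 0.84), BCOR (r = 0.82) and USP10 (r = 0.81) had the probes most like TXNIP over the 15 arrays.

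Across the set, 1 of 9 genes was called higher in CYGB+ and 0 were called lower, at an adjusted p under 0.05 in limma. Over all 22357 probes tested 10.9% were called, 5.47% as higher, so that 1 gene of 9 is near the background. With the replicate number as a block 16.9% of probes were called and PRDX5 was again the one gene of the set (adjusted p = 0.00088). At an unadjusted p under 0.05 there were 2 probes of the set, for PRDX5 and TXN2, and 0 lower in CYGB+, against 28.1% of all probes at that cut. Replicates did not overlap between the groups for 3 of the 10 probes (PRDX4, PRDX5 and TXN2), against 33.3% of all probes. The median difference of the 10 probes was 0.13, against 0.0016 for all probes tested.

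**Figure D2:**
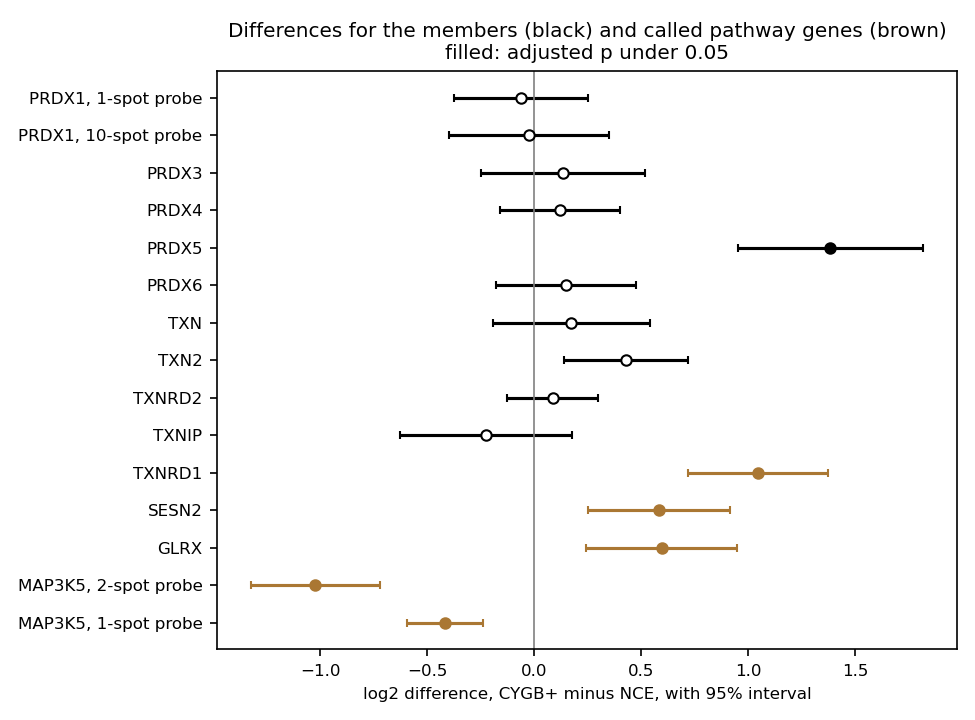
Log2 difference between CYGB+ and NCE with its 95% interval for the 10 probes of the set (black) and for genes of the related lists that were called (brown), filled where the limma adjusted p was under 0.05. PRDX5 at 1.39 and TXNRD1 at 1.05 are the highest, and the 2 MAP3K5 probes at -1.02 and -0.42 are the only ones whose intervals lie below 0.

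Partners that regenerate or repair the peroxiredoxin system were read from a list of 6 genes, of which 5 were measured. TXNRD1, the cytosolic reductase of thioredoxin, rose in CYGB+, from 8.14, 8.21 and 8.20 in NCE to 9.45, 9.18 and 9.05. The groups did not overlap, and the difference of 1.05 corresponded to 2.06-fold (95% interval 1.64 to 2.59, adjusted p = 0.0044). SESN2, a stress-inducible sestrin, rose from 7.29, 7.73 and 7.45 to 8.06, 8.03 and 8.14, a difference of 0.58 (adjusted p = 0.037). TXNRD1 passed in 18 of 19 other settings, the exception being the slide that held both groups (1.00, adjusted p = 0.20), whereas SESN2 passed in 10 of 19 and lost the call when any replicate other than CYGB+ replicate 1 was left out (adjusted p up to 0.14). With slide as a block TXNRD1 was at 0.97 (limma adjusted p = 0.023) and SESN2 at 0.56 (limma adjusted p = 0.16). The other 3 measured genes, TXNRD3, SESN1 and the sulfiredoxin SRXN1, were not called, and SESN3 was too dim to be tested. The list's median difference was -0.16, with 2 of 5 probes above 0.

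Thioredoxin-like proteins and glutaredoxins showed a single change. GLRX, the glutathione-dependent glutaredoxin of the cytosol, rose from 8.45, 8.45 and 8.70 to 9.02, 8.995 and 9.37, a difference of 0.60 (95% interval 0.24 to 0.95, adjusted p = 0.042). Replicate means did not overlap, but single arrays did, at 8.34 to 8.78 in NCE and 8.74 to 9.39 in CYGB+. GLRX passed in 7 of 19 other settings. It lost the call when any replicate other than CYGB+ replicate 1 was left out (limma adjusted p up to 0.16). Without the 3 arrays that stood apart it was not called either (0.52, limma adjusted p = 0.058). The remaining 12 of 13 genes were not called, and the median difference of the 17 probes was -0.03.

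Clients of reduced thioredoxin comprised the ribonucleotide reductase subunits, the methionine sulfoxide reductases and MAP3K5, the kinase ASK1 that reduced thioredoxin holds inactive. MAP3K5 fell on both of its probes. The brighter probe went from 8.12, 8.33 and 8.40 in NCE to 7.29, 7.15 and 7.34 in CYGB+, a difference of -1.02 (95% interval -1.32 to -0.72, adjusted p = 0.0038). The other was dimmer and differed by -0.42 (adjusted p = 0.014). Its size depended on the processing, at -0.62 with an offset of 16, -0.73 in the authors' value table and -1.24 and -1.29 with the processed signal. Replicate means did not overlap on either probe, but single arrays did on the dimmer, at 6.69 to 7.09 in NCE and 6.35 to 6.70 in CYGB+. The brighter probe passed in 18 of 19 other settings and the dimmer in 15, which lost the call without NCE replicate 2 (adjusted p = 0.069) or NCE replicate 3 (adjusted p = 0.063), with the 75th percentile in place of quantile (adjusted p = 0.15) and within the slide that holds both groups (adjusted p = 0.16). The other 6 of 7 genes were not called, and the list's median was -0.02. RRM1 was among them at -0.82 (95% interval -1.49 to -0.15, limma adjusted p = 0.11), and was called lower with the replicate block.

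Arrestin relatives and regulators of TXNIP gave no gene called on all of its probes. MLXIP, which encodes MondoA, the glucose-sensing transcription factor that drives TXNIP, was split. One probe was at 0.66 (adjusted p = 0.023) and the other at 0.05 (adjusted p = 0.88). MLXIPL was too dim to be tested, and the other 5 measured genes were not called. The median difference of the 7 probes was 0.20. Over all 4 lists 3 genes were called higher and 1 lower of 31 measured, beside 10.9% of all probes.

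**Figure D3:**
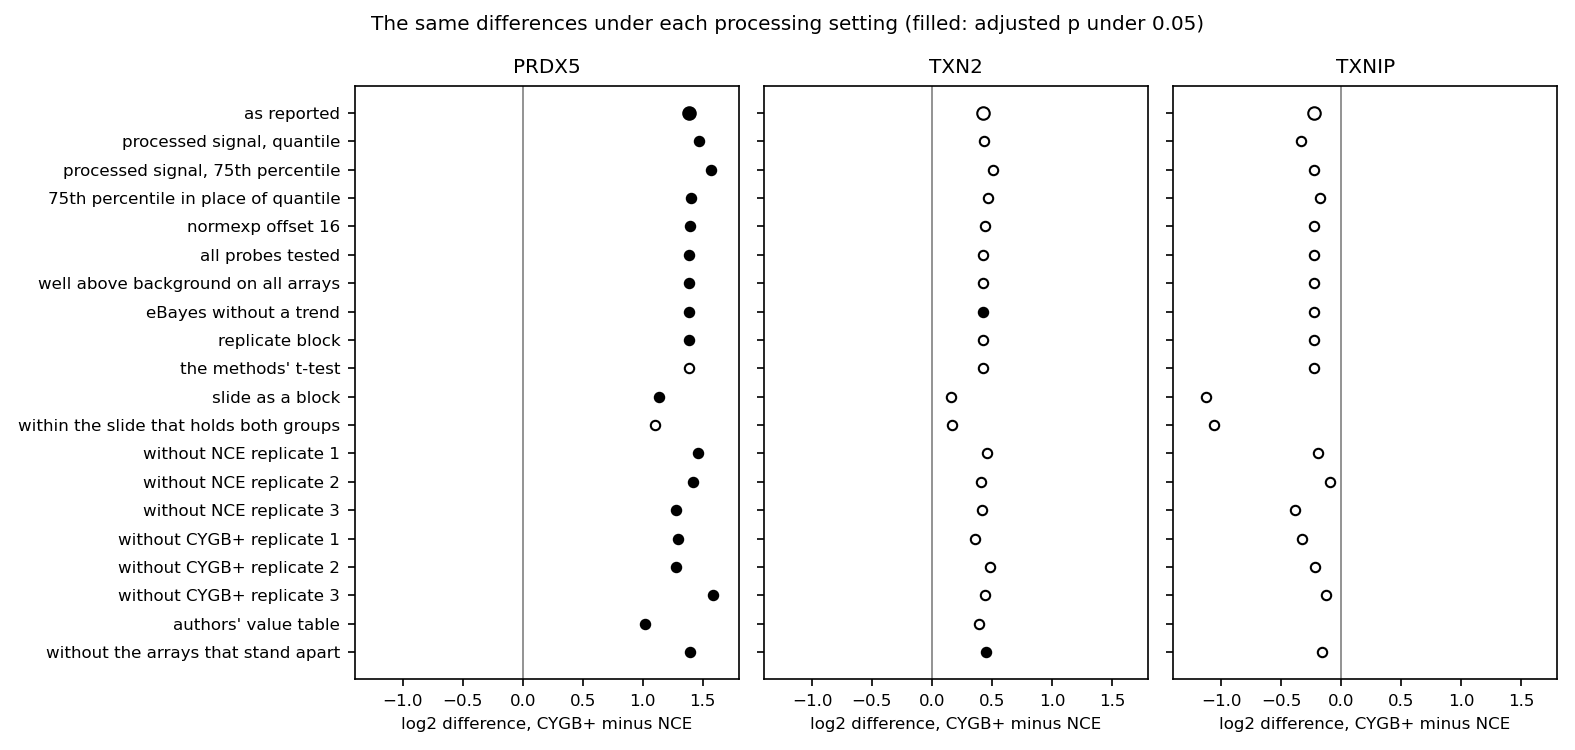
Log2 difference between CYGB+ and NCE for PRDX5, TXN2 and TXNIP as reported and under 19 other settings, filled where the adjusted p was under 0.05. PRDX5 stays between 1.02 and 1.59 and passes in 17 of the 19, TXN2 passes in 2, and TXNIP, which the authors' value table does not hold, passes in none and moves furthest where slide enters.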

How the data were processed

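Total RNA from PE/CA-PJ41 cells was hybridised by the study to Agilent SurePrint G3 Human 8x60K arrays. The deposited scanner files hold the intensity of each spot and its local background in green and red, extracted by the authors with Feature Extraction 10.7.3.1. Per the labels all samples carried Cy3 (green); the study's methods instead give Cy5 for control and Cy3 for cytoglobin cells. The conflict was not settled, and green was used for all arrays. A deposited value table holds log2 values, each probe relative to its CYGB+ median, with column medians from -0.16 to 0.18; it was used as an alternative.

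Green median signal (the design named the mean signal, which these files lack) was corrected by normexp (offset 50) and quantile normalised, and outlier spots were left out. Spots of a probe, then arrays of a biological replicate, were averaged. Probes well above background on at least 6 of 15 arrays were tested with limma 3.58.1 in R 4.3.3 (lmFit, eBayes with a trend, Benjamini-Hochberg over 22357 probes), called at an adjusted p under 0.05, and a gene was called where all its tested probes passed one way. Of 42405 probes, 25422 were named through RefSeq accessions. The number of arrays limits the precision. Same-numbered replicates deviated together (r = 0.21, 0.23 and 0.30). Pairs of unlike number ranged from r = -0.50 to 0.29, and some deviated together as well. These were NCE 1 with CYGB+ 2 (0.21), NCE 2 with CYGB+ 3 (0.29) and NCE 3 with CYGB+ 1 (0.16). Same-numbered pairs met the rule used for pairing (every r over 0.1), but so did those pairs of unlike number, so the rule does not show that numbers pair. A fit with the replicate block was made beside the one without it. The fit with slide as a block did not average arrays. It took the 15 single arrays with slide as a fixed term and the biological replicate as a random block (consensus correlation 0.17).

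Members and lists were chosen with earlier results of these data known. Named by rule were all members, CYGB, up to 3 called genes per list with the largest differences, and the 3 genes most correlated with TXN and with TXNIP. List genes without a probe were to be named too, but all 33 had one. Named outside the rule were the neighbours of PRDX5, some list genes that were not called or not tested, and the split MLXIP. Whether replicates came from separate cultures is stated only as separate extractions.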

Additional observations from a re-analysis of the deposited data

Results flagged for a closer look

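In 20 groups of arrays (10 probes, 2 groups) the gap of the highest or lowest array to its neighbour was large for its group in 2, and chance gives about 1 in 20. TXN was at 15.96 on CYGB+ replicate 1 repeat 1, beside 15.11 for the next array of the group. TXNRD2 was at 6.39 on the same array, beside 6.73 for the next. That array is one of the 3 that stood apart.

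The red channel, which no comparison used, held signal on every array, with 50.6% to 57.1% of probes well above background and a correlation with green of 0.96 to 0.99. In red, PRDX5 averaged 13.66 over the replicates labelled NCE and 14.56 over those labelled CYGB+. Its single arrays overlapped, at 13.12 to 14.67 and 14.27 to 14.82. TXNIP averaged 13.85 and 14.11 in red. These differences were not tested, and whether red held control RNA, as the methods have it, or another sample is not settled by the labels.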

How the results depend on the processing

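The number of probes called was 2426 as reported. It was 1581 with scaling to the 75th percentile, 1502 with all probes tested, 661 with the methods' t-test, 611 with slide as a block, 54 within the slide that holds both groups, 1312 in the authors' value table, 5065 without the arrays that stand apart (chosen after seeing the data), and 633 to 2402 when 1 replicate was left out (lowest without NCE replicate 2; 679 without NCE replicate 3, 1250 without NCE replicate 1 and 1520 without CYGB+ replicate 3). With the replicate block it was 3781, and this paired fit changed no call among the 9 genes of the set. The count of genes of the set called higher, 1 as reported, was 2 without the trend in eBayes (adding TXN2, adjusted p = 0.035) and 2 without the arrays that stand apart, and 0 with the methods' t-test and within the slide. It stayed at 1, and the count called lower at 0, when any replicate was left out. The count of list genes called, 4 as reported, was 2 with all probes tested, 2 with the methods' t-test, 2 with slide as a block, 0 within the slide, 7 without the arrays that stand apart and 1 to 4 when 1 replicate was left out (1 without NCE replicate 2 or 3, 2 without NCE replicate 1 or CYGB+ replicate 2).

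Among the 16 probes followed, signs turned only for values that were not called. For the PRDX1 probe with 10 spots the log2 difference was 0.046 and 0.18 with the processed signal (quantile and 75th percentile), 0.0046 with the 75th percentile, 0.025 with slide as a block, 0.12 within the slide, 0.080 in the value table, 0.067 without the arrays that stand apart and -0.15 to 0.079 when 1 replicate was left out. For the other PRDX1 probe it was 0.17 with the processed signal at the 75th percentile, 0.027 in the value table and -0.15 to 0.018 when 1 replicate was left out. CYGB was at 0.091, 0.032 and -0.31 to 0.22 under the same 3. PRDX6 was at -0.077 with slide as a block, and TXN at -0.029 without the arrays that stand apart. Of 302 single values for 16 probes under 19 settings, 252 kept direction and side of the threshold, 29 lost the call, 2 gained it and 19 turned sign. The cause was not tested. Scan as a block was not run, since each slide had 1 scan.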
